A study of Homo sapiens with 6 samples.

Results

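The keratin and epidermal differentiation gene clusters were followed here in a list of chromatin loops from HAP1, a near-haploid human line derived from a chronic myeloid leukaemia that grows attached to plastic. Contacts had been mapped by Micro-C, a variant of Hi-C in which micrococcal nuclease trims crosslinked chromatin to nucleosomes before ligation. Per the labels, HAP1 cells were grown in IMDM with serum, stained with Hoechst, flow-sorted as diploid and crosslinked with formaldehyde and then DSG; no genotype change or drug is named, and the 6 replicates form 1 group, for which 1 list without replicate columns was deposited. A loop in that list is a pair of 5 kb or 10 kb bins, the anchors, whose contact count exceeded that of its surroundings.

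Members were chosen by position: a loop belonged to a cluster when at least 1 of its anchors overlapped the cluster's interval (hg19). The intervals were 38.80 to 39.80 Mb of chromosome 17 for the type I keratins and the keratin-associated proteins (KRTAP) beside them, 52.60 to 53.35 Mb of chromosome 12 for the type II keratins, and 151.95 to 153.65 Mb of chromosome 1 for the epidermal differentiation complex. KRTAP genes of chromosome 21 were covered by a lower interval (31.70 to 32.30 Mb) and an upper one (45.90 to 46.15 Mb). Of the 46849 loops of the list, 83 met the rule: 43 in the epidermal differentiation complex, 18 in the type II and 16 in the type I interval, 5 in the upper and 1 in the lower chromosome 21 interval. Because the replicates are not told apart and neighbouring loops share anchors, differences between intervals, or from the whole list, were not tested. Intervals of error cover counting only.

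Keratins are the intermediate filament proteins of epithelia, and each filament pairs an acidic type I with a basic type II keratin. KRT8 and KRT18 form that pair in simple epithelia, KRT5 and KRT14 in the basal layer of the epidermis, and KRT1 and KRT10 in the layers above it. KRTAP proteins crosslink the keratins of hair. The epidermal differentiation complex encodes proteins of the cornified envelope and its keratin matrix, among them filaggrin (FLG), involucrin (IVL), LORICRIN and the LCE and SPRR families, together with calcium-binding S100 proteins. HAP1 is not an epidermal cell, and RNA of these genes was not analysed here.

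The RefSeq gene table (GRCh38.p14) gives the gene order but no hg19 positions, so genes were not placed at anchors. In that table the type I cluster holds 28 keratin and 34 KRTAP genes, with KRT222 to KRT40 at its lower end, the KRTAP genes in the middle, and KRT33A to KRT17 at its upper end, followed by EIF1. The type II cluster holds 26 keratin genes and ends with KRT8 and KRT18. The epidermal differentiation complex runs from S100A10 through 7 S100-fused genes such as FLG, then 19 LCE and 11 SPRR genes and LORICRIN, to most of its 16 S100A genes at the upper end. The chromosome 21 stretches hold 33 KRTAP genes (lower) and 16 (upper).

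Many promoters of these clusters hold a TATA box, the motif bound by the TATA-binding protein. The stretches below run from 45 bases before to 5 bases after the transcription start (RefSeq, GRCh38.p14, gene strand). They show 1 gene with the motif TATAAA (in capitals) from 4 gene groups and the envelope gene IVL, and 2 genes without it, chosen after the motif counts were known. Only this exact motif was counted, so TATA-like variants, as in the stretches of KRT5 and S100A6, were not.
KRT10 (suprabasal type I keratin, minus strand): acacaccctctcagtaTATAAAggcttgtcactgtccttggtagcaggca
FLG (filaggrin, minus strand): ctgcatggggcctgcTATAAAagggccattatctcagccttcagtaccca
IVL (involucrin, plus strand): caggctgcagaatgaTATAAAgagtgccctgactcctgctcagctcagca
S100A9 (calprotectin subunit, plus strand): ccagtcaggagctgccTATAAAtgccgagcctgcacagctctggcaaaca
KRTAP13-1 (hair keratin-associated protein, plus strand): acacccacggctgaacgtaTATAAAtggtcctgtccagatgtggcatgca
KRT5 (basal type II keratin, minus strand): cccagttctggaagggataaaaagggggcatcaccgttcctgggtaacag
S100A6 (calcyclin, minus strand): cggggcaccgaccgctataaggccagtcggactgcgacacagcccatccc

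TATAAA began 40 to 20 bases before the start, on the gene strand, in 8 of 9 SPRR promoters found in the table, 5 of 7 S100-fused, 12 of 20 type I keratin, 15 of 33 chromosome 17 KRTAP and 6 of 18 LCE promoters. The counts were 7 of 15 for the upper and 11 of 30 for the lower chromosome 21 KRTAP genes, 4 of 16 for S100A genes and 3 of 14 for type II keratins. Across all 27305 promoters of the table the share was 2.54%, and among 15843 promoters of protein-coding genes it was 3.64%. Anywhere in the 300-base window and on either strand, 12% of all promoters held the motif, against 88.9% of SPRR, 87.9% of chromosome 17 KRTAP and 31.3% of S100A promoters. The median number of CpG dinucleotides in the 300-base window was 1 to 5 in these families, 14 in all promoters and 22 in promoters of protein-coding genes. A match describes the letters only, and the loop list bears on none of these promoters singly.

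Each interval had fewer loops than the mean of its flanks of the same length, where a loop that crossed a bound counted on both sides. The type I interval carried 16.0 loops per Mb (exact Poisson 95% interval 9.15 to 26.0), against 32 in the lower and 43 in the upper flank. In the type II interval there were 24.0 per Mb (14.2 to 37.9), against 41.3 and 46.7. The epidermal differentiation complex had 25.3 per Mb (18.3 to 34.1), against 41.2 and 51.8. On chromosome 21 the lower interval had 1.67 per Mb (0.0422 to 9.29), against 1.67 and 16.7, and the upper one 20.0 (6.49 to 46.7), against 32 and 40. The ratio of the interval to the mean of its flanks was 0.427 for type I (exact binomial 95% interval 0.232 to 0.739), 0.545 for type II (0.305 to 0.930) and 0.544 for the epidermal differentiation complex (0.379 to 0.767). For the chromosome 21 intervals it was 0.182 (0.00422 to 1.25) and 0.556 (0.161 to 1.55), so that counting error alone spans 1 there. These intervals treat loops as independent, which they are not, so they can be too narrow. Loops that crossed a bound entered both counts of a flank ratio, and the net error was not computed.

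Against windows of the same length over the genome, the counts lay on both sides of the median. Windows of 1 Mb over the whole list held a median of 20 loops (quartiles 11 and 28), so the type I count of 16 lay below the median and inside the quartiles. The type II count of 18 stood beside a median of 16 (quartiles 8 and 23) in windows of its length, and the epidermal differentiation complex count of 43 beside 32 (20 and 42.5). The single loop of the lower chromosome 21 interval stood beside a median of 13 (6 and 19), and 10.2% of windows of that length held as few. The upper one had 5 beside a median of 6 (2 and 10). Windows without any anchor were kept: 145 of 2928 for type I, 245 of 3904 for type II and 61 of 1719 for the complex. For the chromosome 21 lengths they were 344 of 4882 (lower) and 1590 of 11726 (upper). Medians without these windows were not computed.

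Contact depth is given beside these counts. The measure of depth was the donut expectation, the contacts expected at a loop from the ring around its pixel, taken as a log2 difference from other 5 kb loops of similar span. Its median was 0.27 in the epidermal differentiation complex (exact 95% interval of the median -0.13 to 0.75), against 0.67 in its lower and 0.82 in its upper flank. It was -0.03 in the type II interval (-0.15 to 0.40), against 0.11 and 0.45, and 0.07 in the type I interval (-0.74 to 0.28), against 0.13 and 0.20. In the upper chromosome 21 interval it was -0.39 (3 loops, range -0.89 to -0.31), against -0.55 and -0.35. The interval of the median held both flank values for type I, and the lower but not the upper flank value for type II and the complex. From 10 kb loops, of which there were 2, 2 and 5, the medians were 0.61 for type I, -0.19 for type II and -0.37 for the complex. Flank values from 10 kb loops were not computed, and a difference in depth between intervals and flanks was not tested. The part of depth in the loop counts was not tested.

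**Figure D1:**
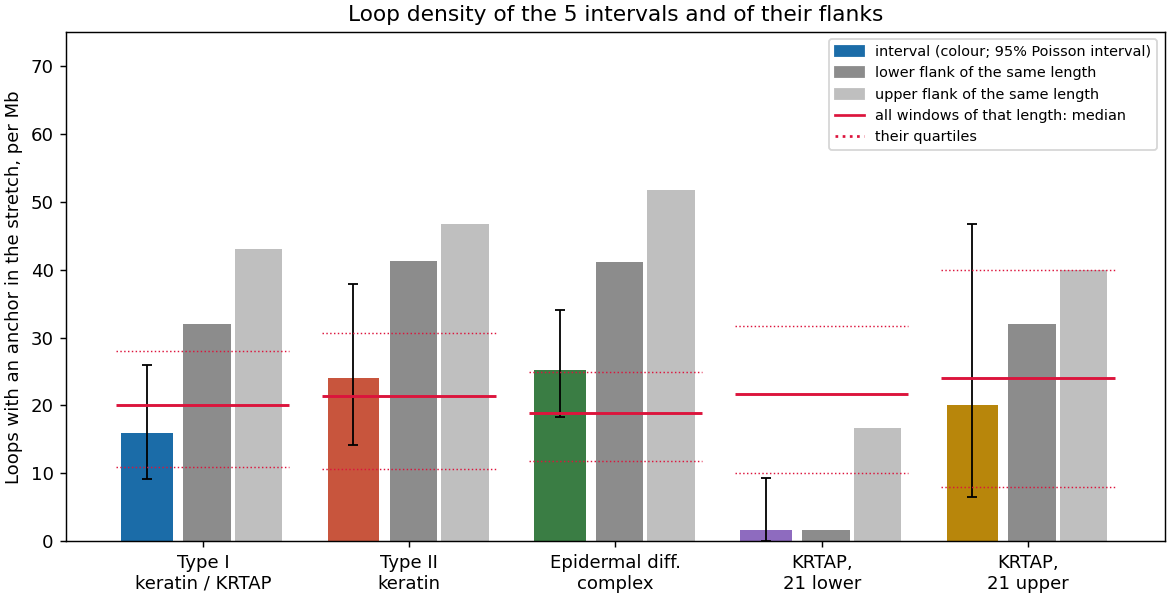
Loops with an anchor in each interval (coloured bars, with exact Poisson 95% intervals) and in flanks of the same length (grey bars), per Mb; red lines give the median and quartiles of all windows of that length. All intervals but the lower one of chromosome 21, which equals its lower flank at 1.67 per Mb, lie below both flanks, and 3 of 5 lie below the median of all windows.

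Span and strength of the members were near those of the whole list. Their median span, between anchor midpoints, was 215 kb (quartiles 95 and 410 kb), beside 160 kb (70 and 360 kb) over all loops. The median ratio of observed contacts to the donut expectation was 3.92 among members and 3.55 over all loops. A ratio of at least 5 was found in 31 of the 83 members (37.3%), beside 28.9% of all loops, and a ratio of at least 10 in 7 (8.43%), beside 5.65%. Relative to loops of like span and anchor width, the log2 ratio had a median of 0.05 and lay above 0 in 46 of 83. Observed counts ran from 13 to 240 contacts with a median of 29, beside 31 over all loops. Each of the 4 q-values of the authors' deposited table was at or below 0.1 in 62 members (74.7%), beside 72.0% of all loops, and 8 members rested on a single pixel (9.64%), beside 8.94%.

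By interval, the median span was 165 kb for type I (exact 95% interval of the median 75 to 735 kb), 150 kb for type II (55 to 285 kb), 240 kb for the epidermal differentiation complex (130 to 320 kb) and 340 kb for the upper chromosome 21 interval (range 230 to 620 kb). The median ratio was 4.01 (2.90 to 6.39), 3.31 (2.67 to 4.47), 4.37 (3.21 to 5.65) and 5.16 (range 2.81 to 5.28) in the same order. These intervals overlap, and the span-adjusted log2 medians were -0.02, 0.03, 0.07 and 0.06. Ratios of at least 5 were reached by 6 of 16 type I, 4 of 18 type II and 18 of 43 epidermal differentiation complex loops, by 3 of 5 in the upper chromosome 21 interval, and not by the single loop of the lower one.

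**Figure D2:**
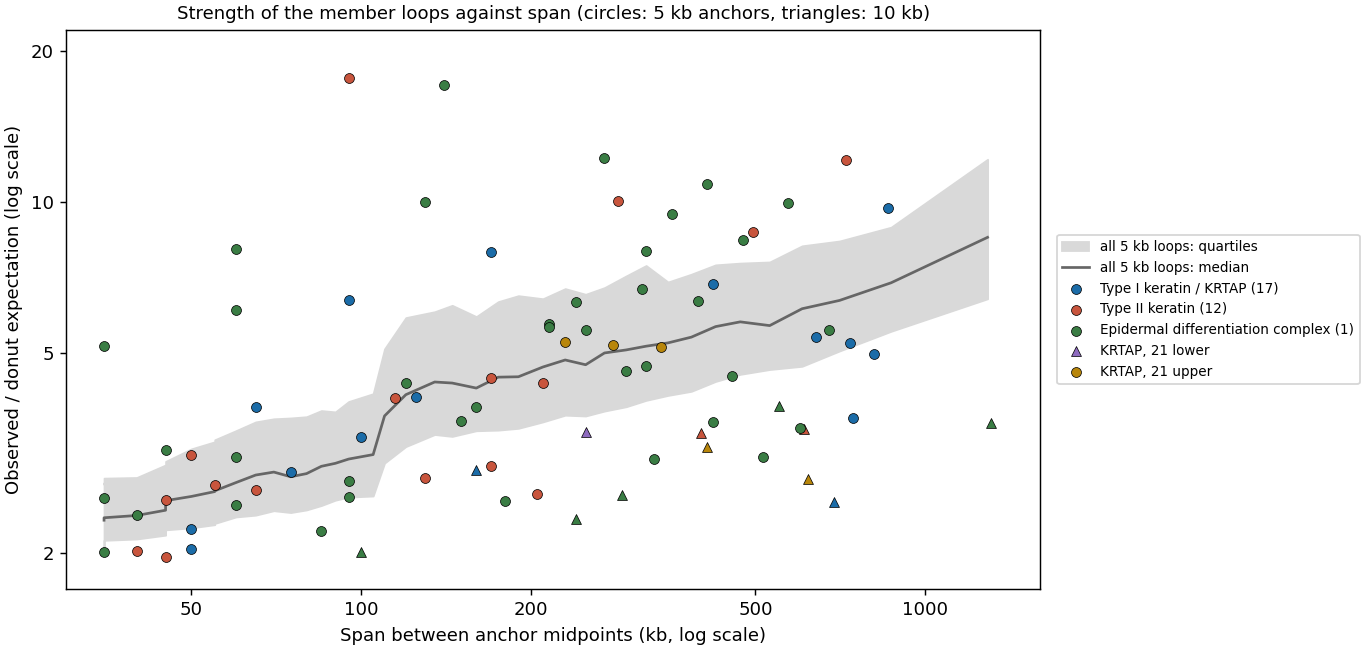
Ratio of observed to expected contacts of each member loop (log scale) against its span (log scale), coloured by interval; the grey line and band are the median and quartiles of all 5 kb loops. Members with 5 kb anchors scatter on both sides of the line, the highest being a type II loop at 17.7 and an epidermal differentiation complex loop at 17.1, and the members with 10 kb anchors (triangles) lie below the line of the 5 kb loops.

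Long loops of the type I keratin and KRTAP interval joined a few anchors of its lower part to a few at or just beyond its upper end. In what follows, anchors are named by the start of their bin in Mb. The lower ends of these loops fell on 3 anchors at 38.960, 39.010 and 39.065 Mb, and their upper ends on 3 anchors at 39.700, 39.800 and 39.820 Mb. The anchors at 39.800 and 39.820 Mb lay outside the interval. Of the 16 loops, 6 joined these facing anchors, where facing means that each anchor held at least 3 loops and most ran toward the other. That is 37.5%, beside 16.4% of all loops, 11.1% of type II (2 of 18) and 25.6% of epidermal differentiation complex loops (11 of 43). Abutting bins counted as separate anchors, so the type II anchors at 53.255 and 53.260 Mb, with 2 loops each, did not qualify. The differences between these shares can depend on that rule, and the shares were not recomputed with abutting bins joined. The 6 facing type I loops spanned 640 to 860 kb and had 13 to 43 contacts. Of all 16 type I loops, 9 lay wholly inside, 1 ran to the lower and 6 to the upper flank.

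The longest and strongest of them joined 38960001 to 38965000 with 39820001 to 39825000. It had 42 contacts (exact Poisson 95% interval 30.3 to 56.8) where 4.31 were expected, a ratio of 9.74 over 860 kb. From the 39.010 Mb anchor, loops reached 39.820 Mb with 26 contacts against 5.21 expected, and 39.700 Mb with 43 against 17.0 at 10 kb anchors. From 39.065 Mb, which held 5 loops and sent all of them to higher coordinates, 3 loops of 640, 735 and 420 kb had 21, 18 and 27 contacts (ratios 5.38, 5.25 and 6.87). The one with the fewest contacts, from 38.960 to 39.705 Mb, had 13 contacts against 3.50 expected, and the largest of its 4 q-values in the authors' deposited table was 0.641.

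Between these anchors the interval had few others. Between 39.195 and 39.640 Mb, in the middle of the interval, the list had anchors only at 39.335, 39.410 and 39.485 Mb. The first of these belonged to a 75 kb loop with 13 contacts against 4.48 expected, whose q-value against the donut was 0.270 in the authors' deposited table. Stretches of 150 kb (39.490 to 39.640 Mb), 140 kb (39.195 to 39.335 Mb) and 145 kb at the lower end (38.800 to 38.945 Mb) held no anchor at all. The 250 kb bin from 39.300 Mb had 3 loop ends, beside a median of 7 (quartiles 3 and 12) in such bins over the whole list. Loops spanned the whole interval. Between 39.120 and 39.800 Mb, 9 to 11 loops passed over each anchor-free stretch of at least 50 kb. The median over the interval was 9 spanning loops per 5 kb bin, beside 4 over the whole list.

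Shorter loops lay at both ends of the interval. The highest count, at the upper end, 72 contacts against 11.3 expected (ratio 6.39), belonged to a 95 kb loop from 39.705 to 39.800 Mb. That 39.800 Mb anchor lay just outside the interval. A 65 kb loop from 39.735 Mb to the same anchor had 56 contacts (ratio 3.92), and a 160 kb loop from 39.640 Mb had 57 (ratio 2.94, 10 kb anchors). The largest q-value of the latter was 0.155 in the authors' deposited table. At the lower end, a 170 kb loop from 38.775 Mb, outside the interval, to 38.945 Mb had 58 contacts and a ratio of 7.96. Next to it, loops from 38.960 Mb to 39.010 and 39.060 Mb had 25 and 15 contacts (ratios 2.04 and 3.40), and loops from 39.065 Mb to 39.115 and 39.190 Mb had 25 and 22 (ratios 2.24 and 4.10). Of these, the loop from 38.960 to 39.010 Mb had a largest q-value of 0.312 in the authors' deposited table. A further 3 loops without an anchor in the interval bridged it whole: from 38.780, 38.510 and 38.100 Mb to 39.820 or 39.840 Mb, with 21, 17 and 14 contacts.

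**Figure D3:**
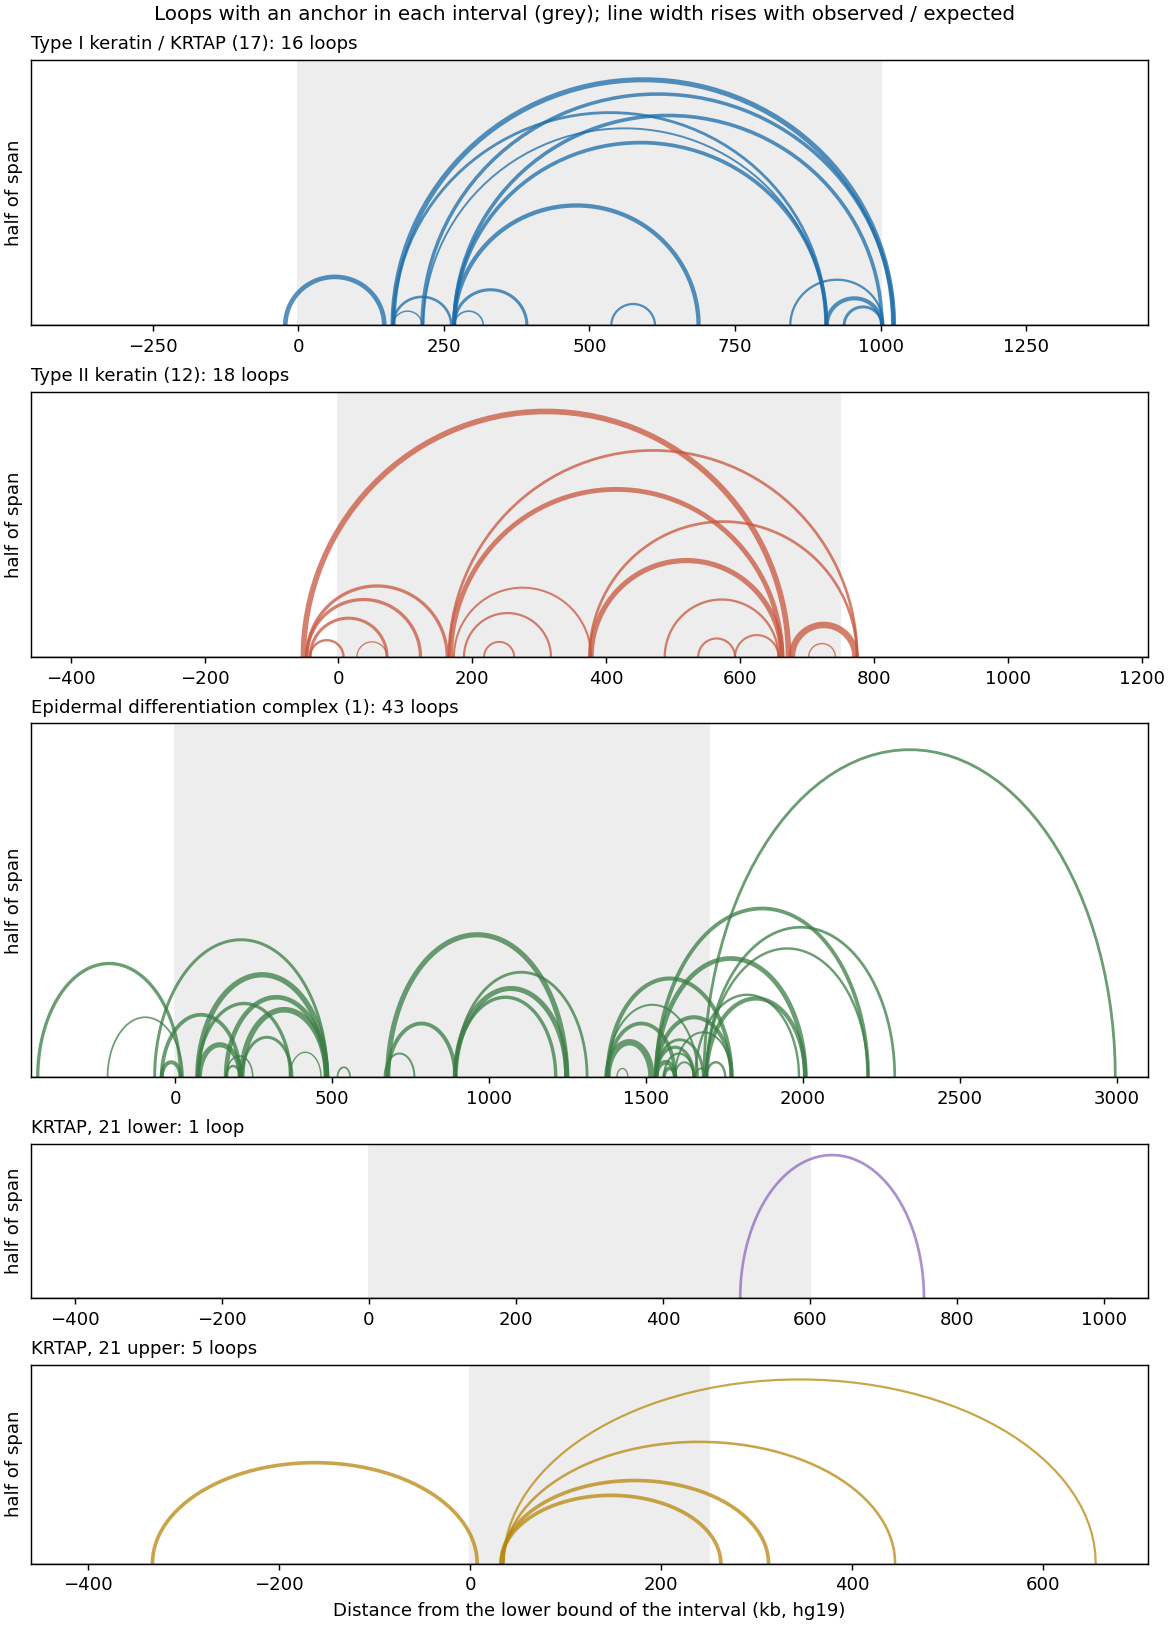
Member loops drawn as arcs between their anchor midpoints, by distance from the lower bound of each interval (grey, kb); arc height rises with the span and line width rises with the ratio of observed to expected contacts. Long type I loops of 640 to 860 kb join a few lower to a few upper anchors and partly cross each other. Among type II loops, 5 end within 20 kb below the strongest one. Loops of the epidermal differentiation complex fall into separate groups, and the lower KRTAP interval of chromosome 21 has a single loop.

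In the type II keratin interval, the strongest loop lay at the upper end. It joined 53275001 to 53280000 with 53370001 to 53375000, had 227 contacts (198 to 259) against 12.9 expected, and its ratio of 17.7 was the highest of all 83 members. It merged 26 pixels over a span of 95 kb. Relative to loops of like span its log2 ratio was 2.54. Inside it lay a 40 kb loop from 53.300 to 53.340 Mb with 59 contacts but 29.2 expected, a ratio of 2.02.

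Of the 18 type II loops, 5 ended within the 20 kb just below that loop. From 52.545 Mb, outside the interval, a 725 kb loop reached 53.270 Mb with 65 contacts (50.2 to 82.8) against 5.35 expected, a ratio of 12.1. Loops from 52.765 and 52.975 Mb ended at 53.260 Mb with 46 and 66 contacts (ratios 8.73 and 10.1). Loops from 53.085 and 53.190 Mb ended at 53.255 Mb with 20 and 26 contacts (ratios 2.98 and 2.67), the first with a largest q-value of 0.686 in the authors' deposited table. The spans of these 5 loops fell with their start, from 725 to 65 kb, so that they were nested. The loops from 52.760 and 52.970 Mb also had partners at 53.370 Mb, each with 28 contacts and ratios of 3.53 and 3.48, at 10 kb anchors. For the first of these the largest q-value was 0.236 in the authors' deposited table. A loop of 825 kb from 52.545 to 53.370 Mb bridged the interval with 22 contacts (ratio 5.07).

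The lower part of the type II interval was joined to anchors just outside it. From 52.550 Mb, loops ran to 52.720 and 52.760 Mb with 36 and 26 contacts (ratios 4.47 and 4.36). From 52.555 Mb they ran to 52.605 and 52.670 Mb with 46 and 43 contacts (ratios 3.14 and 4.07). The middle was sparser: the 250 kb bin from 52.850 Mb had 6 loop ends, against 11 in each of the bins on its sides, and 105 kb (52.980 to 53.085 Mb) held no anchor. Loops with an anchor in that 250 kb bin differed in strength. Those from 52.785 to 52.915 Mb and from 52.815 to 52.860 Mb, each with 23 contacts, had ratios of 2.83 and 2.55. The latter had a largest q-value of 0.784 in the authors' deposited table. By contrast, the loop from 52.975 to 53.260 Mb had 66 contacts and a ratio of 10.1. Of the 18 loops, 10 lay wholly inside, 5 ran to the lower and 3 to the upper flank.

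No chain of overlapping loops spanned the whole epidermal differentiation complex. No loop of the list spanned 152.440 to 152.465, 152.510 to 152.615 or 153.265 to 153.320 Mb, which split the interval into 4 spanned stretches of 490, 45, 650 and 330 kb. These held 14, 1, 6 and 22 loops, or 28.6, 22.2, 9.23 and 66.7 per Mb. Wholly within their stretch lay 9, 1, 6 and 11 of them, because the first and last stretches end at the interval bounds, which loops crossed. The stretches were set by the loops themselves, and the 45 kb one is the extent of its single loop. Their 4 densities are therefore not like measures. The keratin intervals had no such break: all of both was spanned, against 89.1% of the complex and 88.1% of the genome between the first and last loop of each chromosome. A stretch spanned by no loop can lack loops, contacts or mappable bins, which the list does not tell apart.

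In the first stretch, at the S100A10 end of the gene order, 4 loops ended at 152.430 Mb. Loops to it from 152.160, 152.020 and 152.110 Mb had 80, 55 and 41 contacts and ratios of 12.2, 10.9 and 8. The first of these joined 152160001 to 152165000 with 152430001 to 152435000, with 6.54 contacts expected (95% interval of the count 63.4 to 99.6). A 550 kb loop from 151.880 Mb ended there with 20 contacts (ratio 3.93) and a largest q-value of 0.385 in the authors' deposited table. The anchor at 152.155 Mb received 3 loops, the strongest from 152.025 Mb with 77 contacts (ratio 10.0). At the bound itself, a 60 kb loop from 151.905 to 151.965 Mb had 227 contacts against 37.2 expected (ratio 6.10) and merged 37 pixels, the most of any member.

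The 650 kb stretch in the middle had few but long loops. Its 6 loops spanned a median of 338 kb and had 14 to 51 contacts. From 152.840 Mb, loops ran to 153.160, 153.195 and 153.260 Mb with 27, 51 and 14 contacts (ratios 4.73, 9.49 and 3.65). The last had a largest q-value of 0.423 in the authors' deposited table. From 152.625 Mb, a 570 kb loop reached the same 153.195 Mb anchor with 30 contacts against 3.01 expected (ratio 9.96), and a 215 kb loop reached 152.840 Mb with 26 (ratio 5.72). Those anchors therefore formed a closed triangle of 152.625, 152.840 and 153.195 Mb. The 315 kb from 152.845 to 153.160 Mb, the longest anchor-free stretch outside chromosome 21, was spanned by 4 loops.

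**Figure D4:**
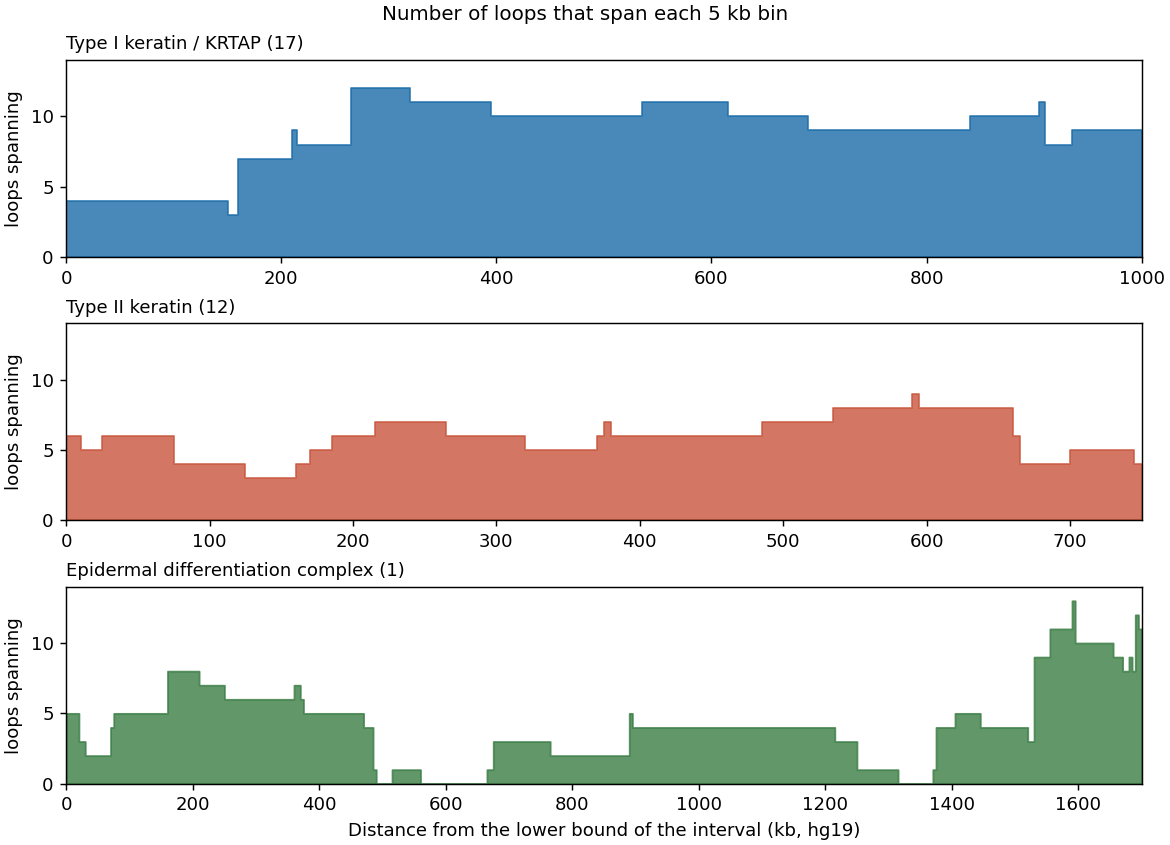
Number of loops spanning each 5 kb bin (from lower anchor start to upper anchor end), by distance from the lower bound of the interval in kb, for the 3 largest intervals. The type I and type II intervals are spanned throughout, with up to 12 and 9 loops, whereas the count in the epidermal differentiation complex drops to 0 at 3 places and reaches 13 in its last stretch.

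The 330 kb at the upper end, where the gene order has the S100A genes, held 22 of the 43 loops. The 200 kb from 153.450 Mb alone had 27 loop ends. The anchor at 153.480 Mb sent all of its 6 loops to higher coordinates: 60, 120, 150, 240, 475 and 675 kb away, with 240, 70, 61, 55, 53 and 22 contacts. The first of these, from 153480001 to 153485000 to 153540001 to 153545000, had the highest count of all members (211 to 272, 29.8 expected, ratio 8.05). A 35 kb loop from 153.505 Mb to the same anchor had 226 contacts against 43.6 expected, but rested on a single pixel.

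The strongest loop of the complex by ratio was also here. It joined 153325001 to 153330000 with 153465001 to 153470000 over 140 kb, with 198 contacts (171 to 228) where 11.6 were expected, a ratio of 17.1. The 153.320 Mb anchor at its lower end sent out 4 loops, all upward, and its next 5 kb loops, to 153.540 and 153.720 Mb, had 32 and 20 contacts (ratios 5.65 and 6.35). Of the 43 loops of the complex, 11 ran to the upper flank and 5 to the lower. From 153.640 Mb they reached 153.955 Mb with 76 contacts (ratio 6.71) and 154.155 and 154.240 Mb with 20 and 14. The last had a largest q-value of 0.168 in the authors' deposited table. The longest member of all, 1310 kb from 153.630 to 154.940 Mb, had 13 contacts (6.92 to 22.2) and a largest q-value of 0.614 in the authors' deposited table.

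The KRTAP intervals of chromosome 21 held no loop with both anchors inside. In the lower one, 500 kb from 31.700 to 32.200 Mb had no anchor, or 83.3% of the interval. Its single loop ran from 32200001 to 32210000 to 32450001 to 32460000, beyond the upper bound, with 17 contacts (9.90 to 27.2) against 4.87 expected and a largest q-value of 0.173 in the authors' deposited table. A loop of 1730 kb from 30.740 to 32.470 Mb bridged the interval with 13 contacts. The lower flank was as empty, with 1 loop in 600 kb, and the upper flank had 10.

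In the upper interval, 4 of the 5 loops started from 1 anchor at 45.930 Mb. They ran to 46.160, 46.210, 46.340 and 46.550 Mb with 25, 22, 24 and 15 contacts and ratios of 5.28, 5.21, 3.26 and 2.81. The last had a largest q-value of 0.506 in the authors' deposited table. The fifth loop came from 45.565 Mb to the lower bound at 45.905 Mb with 13 contacts (ratio 5.16). No anchor lay in the 210 kb between 45.940 and 46.150 Mb, which 7 loops passed over. Among loops that bridged the interval, 1 from 45.755 to 47.060 Mb had 18 contacts against 0.955 expected.

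Sharing of anchors was common in all but the lower chromosome 21 interval. It was found for 14 of 16 type I, 15 of 18 type II, 40 of 43 epidermal differentiation complex and 5 of 5 upper chromosome 21 loops, or 74 of 83 members (89.2%), beside 89.7% of all loops.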

How the data were processed

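Micro-C libraries of 6 HAP1 replicates were represented by 1 deposited loop list in which replicates are not told apart. Per the submitters' processing notes, BWA and the hg19 build were used, and per the file headers the list came from juicer_tools 1.22.01, with the column names of the HiCCUPS caller. Caller settings, how replicates were pooled, and depth were not stated in the labels. The authors deposited observed contacts as raw counts, 4 expected values per loop on the same scale, q-values and merged pixels. The radius was not used.

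Membership came from interval overlap of at least 1 bp. Ratios used the donut expectation, and span adjustment subtracted medians of 40 span bins within anchor width. Anchors overlapping by at least 1 bp were merged, and abutting bins were kept apart. Coordinates are 1-based. Medians have exact order-statistic intervals, shares and flank ratios exact binomial ones and counts exact Poisson ones (95%). Precision is limited by counts of 13 to 240 contacts per loop. In each interval the 3 loops with the highest count, the 3 with the highest ratio among those with at least 1 expected contact, the longest, those joining both edges (within 50 kb) and shared anchors were named; further loops were named after their values were seen. Members, intervals and gene lists were chosen with earlier results of these data known. The functions were tested on simulated data. Tools were scipy 1.17.1, numpy 2.4.6, matplotlib 3.10.9 and pandas 2.3.3 under Python 3.11.15.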

Additional observations from a re-analysis of the deposited data

How the results depend on the processing

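Across 46 results, 131 alternative values were computed, of which 103 stayed within 1.5 times the count or within the interval of the value given and 28 moved. Loops per Mb repeat the loop counts wherever the interval length is unchanged, so the tally is not a count of independent checks. Ratios of density to flanks stayed inside their intervals with 1 Mb flanks and without single-pixel loops. For type I, 1 Mb was already the flank length, so that setting could change nothing there. With both anchors required inside, loops numbered 9 (type I, 9 per Mb), 10 (type II, 13.3 per Mb), 27 (epidermal differentiation complex, 15.9 per Mb) and 0 in both chromosome 21 intervals. Bounds widened by 100 kb gave 27 type I loops, 11 in the upper chromosome 21 interval, and 21.7% of loops crossing a bound in the complex, against 37.2%. Bounds narrowed by 50 kb left 0 in the upper chromosome 21 interval. With 5 kb anchors only, the upper interval had 3 loops (12 per Mb) and the lower 0. With the 4 q-values at or below 0.1, the lower one had 0, and the longest anchor-free stretch was 290 kb (type I) and 210 kb (type II). Against the largest of the 4 expectations the median ratio was 2.43 for type II and 3.00 for the complex. From 10 kb loops the contact depth was 0.61 (type I), -0.19 (type II) and -0.37 (complex), and flank depth was not recomputed with them. Medians were not recomputed for the lower chromosome 21 interval, which has 1 loop. No paired analysis was possible because the list holds the 6 replicates as 1, and leaving replicates out was not possible for the same reason. Counting error limits single loops most.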
